A study of Mus musculus with 10 samples.

Results

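Messenger RNA levels of 10 genes that identify cardiac fibroblasts and their niche were compared between 3 regions of the mouse heart, namely the ventricular septum and the right (RV) and left (LV) ventricles. The genes were Pdgfra, Tcf21, Dpt, Gsn, Mfap5, Pi16, Dpep1, Fbln1, Ccn2 and Postn, chosen by name among the 22907 genes with a symbol on the array. All 10 had a probe, and each of their probes was well above background on all 10 arrays. Hearts of C57BL/6N mice were divided into the 3 regions, and total RNA of each piece was hybridised to a single-colour Agilent array. There were 4 arrays of the RV and 3 each of the LV and the septum. The mice carried no described transgene and no treatment or operation is named for them, and their age and sex are not given in the sources used here. The submitters state that different individuals served for each experiment, but no label ties an array to an animal, so p-values below measure the spread between these samples.

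Fibroblasts lie between the cardiomyocytes, where they build and renew the collagen and elastic matrix of the wall. Most descend from the epicardium and keep the transcription factor Tcf21 and the growth factor receptor Pdgfra in the adult heart, while a population around vessels carries genes such as Pi16. After injury fibroblasts become activated and make matricellular proteins, of which Ccn2 and Postn are widely used marks. Each sample was a piece of whole wall, so fewer fibroblasts and less of these RNAs per fibroblast cannot be told apart.

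A level is given as the log2 processed signal minus the 75th percentile of its array, so a step of 1 is a 2-fold change and levels of different probes are not comparable. Differences were tested with limma on 30236 probes, with p-values adjusted by the Benjamini-Hochberg method, and "called" means an adjusted p below 0.05. The arrays came from 2 slides. Slide 1 held replicates 1 and 2 of each region, and slide 2 held RV replicates 3 and 4 with replicate 3 of the LV and of the septum. Between 53.7% and 64.0% of spots were well above background per array. No spot was saturated. The labelled tissue was checked with 10 cardiomyocyte markers. All were measured on every array, at mean levels of 8.25 to 8.38 in the RV, 8.38 to 8.57 in the LV and 8.30 to 8.54 in the septum, and none was called between regions.

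The sequences upstream of the genes that were called between the RV and the LV are shown because Tcf21 encodes a basic helix-loop-helix factor, a class that binds the E-box CANNTG. Each line gives the 250 bases before an annotated start site from RefSeq (assembly GRCm38.p6), 5′ to 3′ on the gene's strand, with E-boxes in capitals. Pdgfra lies at chr5:75152001-75152250 (+ strand), Tcf21 at chr10:22820144-22820393 (− strand) and the first start of Fbln1 at chr15:85205699-85205948 (+ strand).
Pdgfra: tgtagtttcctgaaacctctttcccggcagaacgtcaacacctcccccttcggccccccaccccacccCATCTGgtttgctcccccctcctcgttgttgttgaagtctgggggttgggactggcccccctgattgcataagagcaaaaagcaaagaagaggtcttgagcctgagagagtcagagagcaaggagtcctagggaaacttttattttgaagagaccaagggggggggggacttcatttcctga
Tcf21: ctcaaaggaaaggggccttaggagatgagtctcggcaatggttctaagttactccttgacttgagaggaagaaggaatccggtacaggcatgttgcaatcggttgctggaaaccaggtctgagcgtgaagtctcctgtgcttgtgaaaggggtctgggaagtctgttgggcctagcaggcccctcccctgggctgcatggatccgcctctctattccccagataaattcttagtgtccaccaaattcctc
Fbln1: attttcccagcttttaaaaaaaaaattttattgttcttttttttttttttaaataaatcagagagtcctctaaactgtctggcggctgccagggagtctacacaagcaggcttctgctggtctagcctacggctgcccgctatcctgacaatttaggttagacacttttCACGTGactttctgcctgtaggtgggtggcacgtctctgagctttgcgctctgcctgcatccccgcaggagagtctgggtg
The Pdgfra window held 1 E-box, with its first base at position −182 from the start site, and this Fbln1 window held 1 at position −81. The Tcf21 window held none. A promoter entry was found for 8 of the 10 genes, with 12 windows in all, and 7 windows of 4 genes (Pdgfra, Dpt, Gsn and Fbln1) held the motif. Of 32841 mouse promoters 66.2% held an E-box in a window of this length. The motif reads the same on both strands. The hexamer GGAATG, to which TEAD factors bind, was searched on both strands and lay in 1 window (Dpep1), against 12.6% of all promoters. Mfap5 and Ccn2 were not matched.

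Pdgfra and Tcf21 are the genes by which resident cardiac fibroblasts are usually recognised, and both were higher in the RV than in the LV. Pdgfra encodes a receptor tyrosine kinase for platelet-derived growth factors (PDGF). Its level on the 4 RV arrays was 1.56, 1.67, 1.74 and 1.82, on the LV arrays 1.22, 1.39 and 1.29, and on the septum arrays 1.40, 1.39 and 1.25. Every RV array lay above every LV and septum array. Pdgfra exceeded its LV level by 0.40 ± 0.09 (SE) with an adjusted p of 0.0364, a 1.32-fold higher signal. Against the septum it was 0.35 ± 0.09 and was not called (adjusted p = 0.0815).

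Tcf21 had levels of −0.73, −0.62, −0.78 and −0.42 in the RV, of −1.17, −1.26 and −1.15 in the LV, and of −1.02, −1.24 and −1.22 in the septum. The RV arrays again lay above all others, and the LV and septum arrays overlapped. The RV level exceeded the LV level by 0.56 ± 0.10 (adjusted p = 0.0208, 1.47-fold) and the septum level by 0.52 ± 0.10 (adjusted p = 0.0378, 1.44-fold). Tcf21 was the only one of the 10 genes called in both comparisons with the RV. These comparisons share the RV arrays.

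These calls rested on few arrays. The Pdgfra call was kept without RV replicate 1 (adjusted p = 0.0406) or septum replicate 3 (0.0448) and was lost without any other single array (adjusted p 0.0555 to 0.133). The Tcf21 call against the LV was lost without LV replicate 1, 2 or 3 or RV replicate 2 (adjusted p 0.0530 to 0.0937). Its call against the septum was kept only without RV replicate 3 (0.0373) or septum replicate 1 (0.0483). The difference itself stayed between 0.36 and 0.44 for Pdgfra, between 0.48 and 0.60 for Tcf21 against the LV and between 0.45 and 0.59 for Tcf21 against the septum.

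Among the genes of the extracellular matrix, Fbln1 was called. It encodes fibulin-1, a secreted glycoprotein of elastic fibres and basement membranes. Its RV levels were 1.81, 2.21, 2.37 and 2.41, its LV levels 1.08, 1.55 and 1.65, and its septum levels 1.61, 1.63 and 1.90. The RV and LV arrays did not overlap, and RV replicate 1 lay below septum replicate 3. Fbln1 was 0.77 ± 0.18 higher in the RV than in the LV (adjusted p = 0.0485), a 1.71-fold difference and the largest among the 10 genes. The call was kept when RV replicate 1 was left out (adjusted p = 0.0283) and lost when any other array was (0.0574 to 0.150), with differences of 0.60 to 0.90. Against the septum the difference was 0.48 ± 0.18 (adjusted p = 0.261).

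Dpt encodes dermatopontin, a small matrix protein that binds decorin and takes part in collagen fibril assembly. The 4 RV arrays lay close together at 2.03, 2.06, 2.12 and 2.19, the LV arrays at 1.47, 1.51 and 1.14, and the septum arrays at 2.01, 1.65 and 0.94. All RV arrays were above all LV and septum arrays, with septum replicate 1 only just below. The differences of 0.72 ± 0.21 to the LV (adjusted p = 0.0975) and 0.57 ± 0.21 to the septum (adjusted p = 0.269) were not called. Without septum replicate 3, the most distant septum array, the spread shared by the regions was smaller and the RV–LV difference of 0.72 was called (adjusted p = 0.0203).

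Mfap5 encodes a glycoprotein of the microfibrils on which elastic fibres are laid down. Its levels were 3.54, 3.66, 3.95 and 3.73 in the RV, 3.32, 3.63 and 3.01 in the LV, and 3.72, 3.64 and 3.30 in the septum. The regions overlapped, and the difference between RV and LV was 0.40 ± 0.16 (adjusted p = 0.214).

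Gsn encodes gelsolin, which severs and caps actin filaments and is also secreted. Its brighter probe read 7.78, 7.78, 8.04 and 8.13 in the RV, 7.30, 7.46 and 7.55 in the LV, and 7.55, 7.48 and 7.80 in the septum. The RV and LV arrays did not overlap, and the difference of 0.50 ± 0.12 had an adjusted p of 0.0568, just short of a call. The second Gsn probe gave a difference of 0.51 ± 0.12. Against the septum the brighter probe differed by 0.32 ± 0.12 (adjusted p = 0.267).

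Pi16 encodes a peptidase inhibitor that marks adventitial fibroblasts, and Dpep1 a membrane-anchored dipeptidase. Pi16 read 5.02, 5.33, 5.28 and 5.01 in the RV, 5.03, 5.37 and 4.50 in the LV, and 5.14, 5.56 and 4.73 in the septum. Its regions overlapped widely, with the lowest LV and septum values both on slide 2. The difference between RV and LV was 0.19, with a 95% interval of −0.33 to 0.71, and that between RV and septum was 0.02, with an interval of −0.50 to 0.54. Dpep1 read 3.08, 2.94, 2.62 and 2.89 in the RV, 2.64, 2.52 and 2.47 in the LV, and 2.64, 2.51 and 2.38 in the septum. Only RV replicate 3 fell within the range of the other regions. Dpep1 was 0.34 ± 0.12 higher in the RV than in the LV (adjusted p = 0.145) and 0.37 ± 0.12 higher than in the septum (adjusted p = 0.172), and neither was called.

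The genes of matricellular proteins varied most among the RV arrays. Ccn2, also named connective tissue growth factor, is induced by the transcriptional coactivator YAP with TEAD factors and by TGF-beta. Its levels were 3.12, 3.12, 3.89 and 3.92 in the RV, 2.91, 2.90 and 3.48 in the LV, and 3.24, 2.87 and 3.95 in the septum. In each region the arrays of slide 2 were the highest, by 0.78 in the RV, 0.57 in the LV and 0.90 in the septum. The RV–LV difference of 0.42 ± 0.30 was smaller than those shifts and was not called (adjusted p = 0.505).

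Postn encodes periostin, which fibroblasts of valves and of injured myocardium secrete. Its brightest probe read 1.25, 1.35, 2.52 and 1.98 in the RV, 1.16, 1.27 and 0.84 in the LV, and 1.94, 1.56 and 1.67 in the septum. The 2 RV arrays of slide 1 lay near the LV arrays, and those of slide 2 lay above every other array. The RV–LV difference was 0.69 ± 0.28 (adjusted p = 0.215), and the other Postn probes gave 0.75 and 0.73. By the brightest probes, Postn was the only one of the 10 genes whose septum arrays all lay above the LV arrays. On the second, dimmer Gsn probe the septum arrays (0.98 to 1.24) also lay above the LV arrays (0.66 to 0.92). The septum–LV difference of Postn was 0.63 ± 0.30, with a 95% interval of −0.04 to 1.31.

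**Figure D1:**
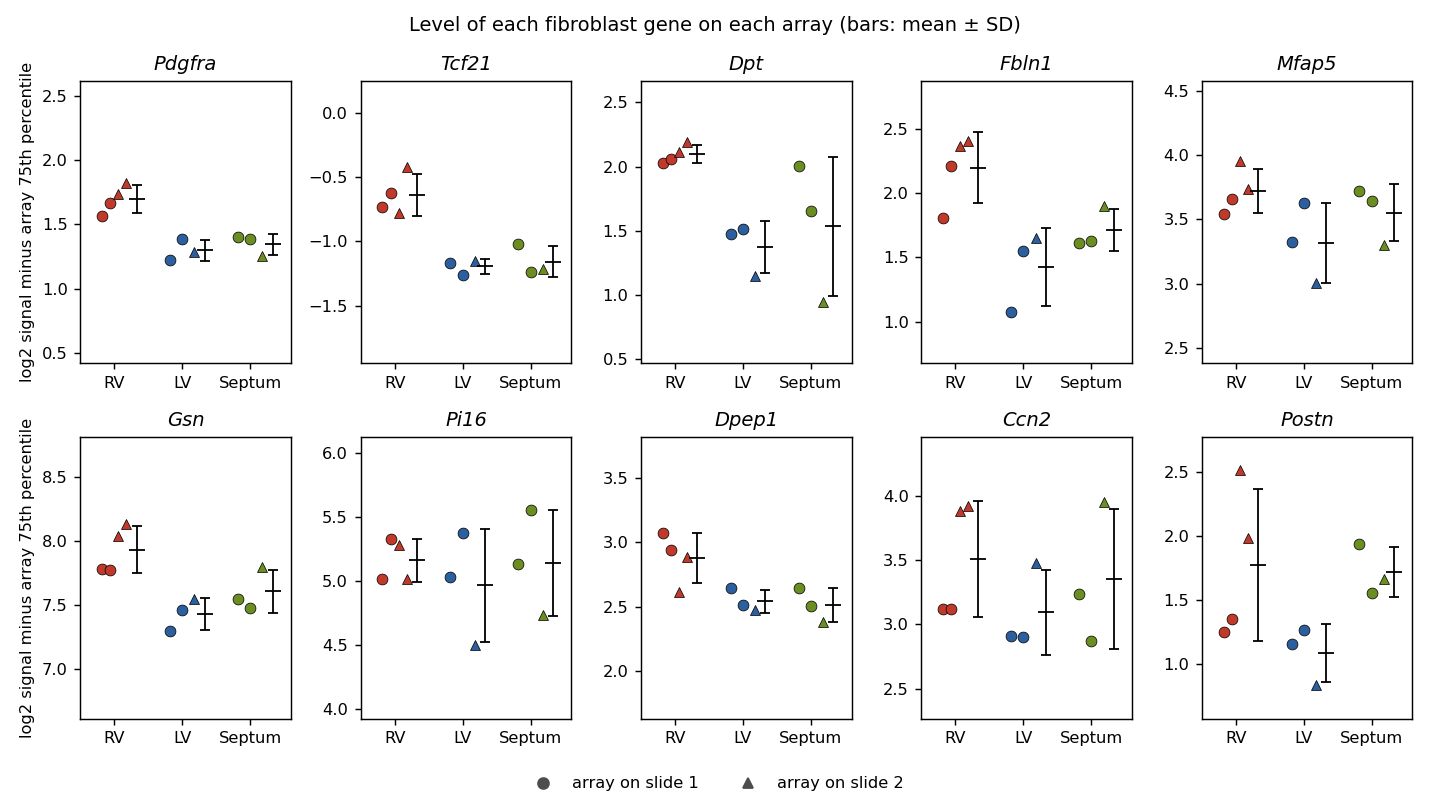
Level of each of the 10 genes on each array, as log2 signal minus the array's 75th percentile. Each point is 1 array (circle, slide 1; triangle, slide 2), bars are mean ± SD, and each panel spans the same range of the axis. For Pdgfra, Tcf21 and Dpt all 4 RV arrays lie above all LV and septum arrays, while Ccn2 is highest on slide 2 in every region.

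Read together, the mean of the RV was the highest of the 3 regions for 10 of 10 genes, and the LV was the lowest for 9 (Dpep1 was lowest in the septum). RV signals were 1.14-fold to 1.71-fold those of the LV. The median difference between RV and LV was 0.46 over the 10 genes and −0.05 over the 14643 genes tested, of which 39.4% had the higher mean in the RV. The gene names were not chosen at random and were known to differ here, so this contrast is a description. Of the 10 genes 3 were called higher in the RV than in the LV, where 2.31% of all probes and 3.14% of all genes tested were. For 5 genes (Pdgfra, Tcf21, Dpt, Gsn and Fbln1) no LV array reached any RV array, against 8.1% of all probes and 1343 of the 14643 genes. None was called lower. Of all 1167 probes called between RV and LV 59.7% were higher in the RV, and 75.9% of calls were with the scaling based on probes detected on all arrays. Under that scaling the median of the 10 genes was 0.51.

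Between RV and septum the 10 genes had a median difference of 0.34, against −0.04 over all genes. Tcf21 was the 1 gene called, where 1.2% of probes and 1.68% of all genes tested were called higher in the RV. For 3 genes (Pdgfra, Tcf21 and Dpt) no septum array reached any RV array, against 5.86% of all probes and 1016 of the 14643 genes. For Pi16 and Postn the difference was 0.02 and 0.05, with an interval of −0.58 to 0.68 for Postn.

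Between septum and LV no gene was called, and over all probes the share called by limma was 0.0% (863 probes, none of them of the 10 genes' brightest probes, had an unadjusted p below 0.05). The median difference of the 10 genes was 0.17, against −0.02 over all genes. It was positive for 9 genes. By the brightest probes the arrays of 1 gene (Postn) did not overlap, against 3.55% of all probes and 532 of the 14643 genes. For Tcf21 the septum and LV differed by 0.03, with a 95% interval of −0.21 to 0.28, and for Pdgfra by 0.05, with an interval of −0.16 to 0.25. The intervals for RV minus LV were 0.32 to 0.79 for Tcf21 and 0.21 to 0.59 for Pdgfra, and for Pdgfra the intervals overlap. These contrasts share the LV arrays. The direct comparison of RV and septum was called for Tcf21 and not for Pdgfra.

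**Figure D2:**
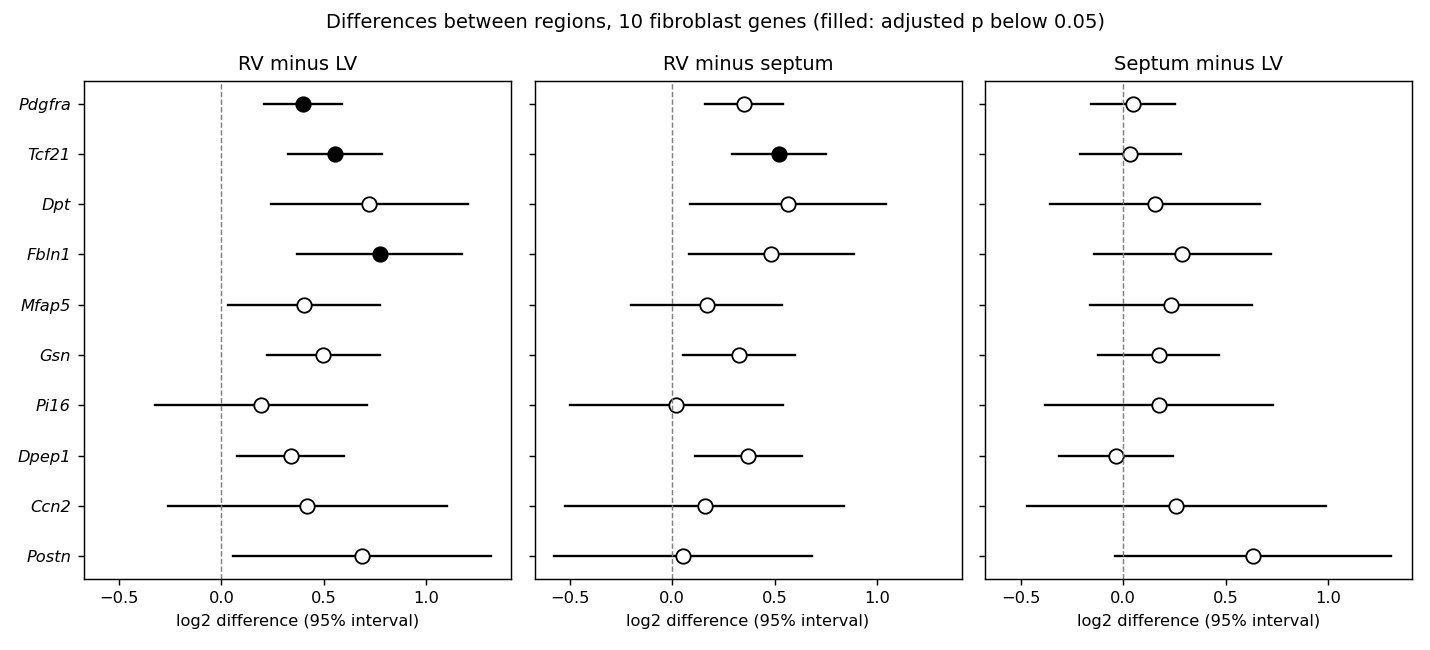
Differences between regions for the 10 genes on the log2 scale, with 95% intervals from limma. Filled points have an adjusted p below 0.05. All 10 points lie above 0 for RV minus LV, where Pdgfra, Tcf21 and Fbln1 are filled, while no point is filled for septum minus LV.

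The slides were a source of spread of the same size as the regions for several genes, so each difference was recomputed within a slide. For RV minus LV, 9 of the 10 genes were positive within slide 1 and 10 within slide 2. The exception was Pi16, at −0.03 within slide 1 and 0.65 within slide 2. Tcf21 gave 0.54 and 0.55, Fbln1 0.69 and 0.74, Gsn 0.40 and 0.54, and Pdgfra 0.31 and 0.49. For these 4 genes, Dpep1 (0.43 and 0.28), Dpt (0.55 and 1.01) and Ccn2 (0.22 and 0.43) the values of the slides lay closer to each other than to 0. Postn gave 0.09 within slide 1 and 1.41 within slide 2, and Mfap5 gave 0.12 and 0.84.

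Against the septum 7 genes were positive within slide 1 and 9 within slide 2. Dpt differed from the septum by 0.21 within slide 1 and by 1.21 within slide 2. Mfap5 (−0.08), Pi16 (−0.17) and Postn (−0.45) were negative within slide 1, and Ccn2 (−0.05) within slide 2. Slide 2 holds a single LV and a single septum array, so its values have no replicate on that side. Between septum and LV 9 genes were positive within slide 1 and 6 within slide 2.

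**Figure D3:**
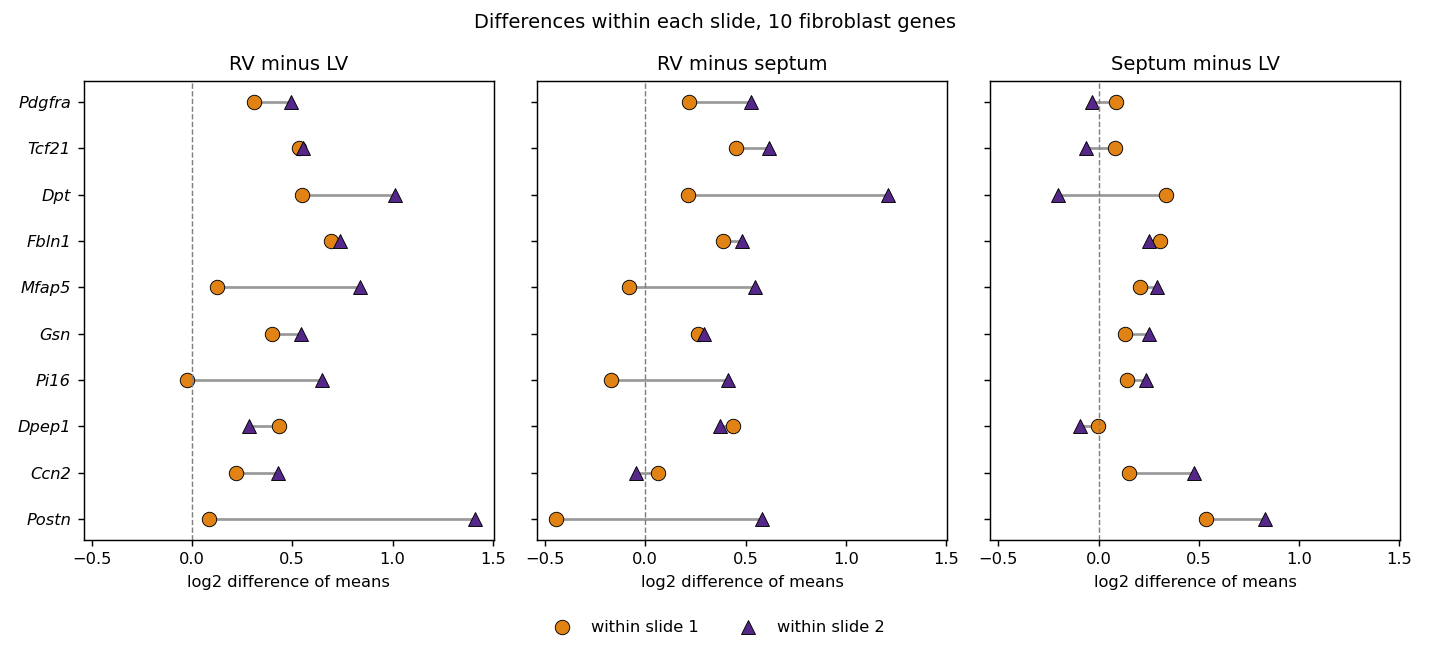
Differences of mean level between regions within slide 1 (circles) and within slide 2 (triangles), on the log2 scale. Tcf21, Fbln1 and Pdgfra lie right of 0 on both slides in the comparisons with the RV, while Postn and Mfap5 are close to or below 0 on slide 1 and above 0.5 on slide 2.

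With slide as a block in the model more genes of the whole array passed, and so did more of the 10. Against the LV 6 genes were called, where 7.25% of all probes were called higher in the RV. Beside Pdgfra, Tcf21 and Fbln1 these were Gsn (0.45, adjusted p = 0.00323), Dpep1 (0.37, adjusted p = 0.0192) and Dpt (0.77, adjusted p = 0.0251). Against the septum 4 were called (Pdgfra, Tcf21, Gsn and Dpep1), where 4.03% of all probes were. When the replicate number formed the block, 5 genes were called against the LV (6.24% of all probes). They were Pdgfra, Tcf21, Fbln1, Gsn (0.43, adjusted p = 0.0142) and Dpep1 (0.34, adjusted p = 0.0314). Tcf21 (0.45) and Dpep1 (0.37, adjusted p = 0.0367) were called against the septum, where 3.35% of all probes were. Mfap5, Pi16, Ccn2 and Postn were called in none of these fits. By contrast, none of the 10 genes was called with the median as scaling factor or with no filter on dim probes.

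Lists of further fibroblast genes were set beside the 10. Of 18 resident fibroblast genes all were tested, and 16 had a higher mean in the RV than in the LV, with a median difference of 0.44. Those called were Dcn (0.46 ± 0.10, adjusted p = 0.0428), the collagen-binding proteoglycan decorin, and Serpinf1 (0.99 ± 0.23, adjusted p = 0.0459), a secreted serpin. Smoc2 (−0.20) and Hsd11b1 (−0.43) had the lower mean in the RV and were not called. The fibrillar collagen genes Col1a1, Col1a2 and Col3a1, singled out after their values were seen, gave 1.03, 0.94 and 1.05, but their RV levels split by slide. Col1a1 read 2.03 and 2.31 on slide 1 and 3.89 and 3.73 on slide 2, and none of these collagen genes was called (adjusted p 0.146 to 0.253).

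Of 9 adventitial fibroblast genes 8 were tested, and all 8 had a higher mean in the RV than in either other region. Sema3c, a secreted semaphorin, was called against the LV (0.53 ± 0.10, adjusted p = 0.0216). Dact2, a modulator of Wnt and TGF-beta signalling, was called against the LV (0.48 ± 0.11, adjusted p = 0.0417) and the septum (0.55 ± 0.11, adjusted p = 0.0359). The list's median difference was 0.49 to the LV and 0.40 to the septum.

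Of 13 fibroblast activation genes 11 were tested, and 3 were called against the LV, 2 of them (Aebp1 and Fn1) among the 10 measured on all arrays. Of all probes 2.31% and of all genes 3.14% were called higher in the RV than in the LV. Aebp1, which encodes a secreted collagen-binding protein, had RV levels of 4.43, 4.60, 5.02 and 4.79, LV levels of 3.05, 3.21 and 2.80, and septum levels of 3.28, 2.85 and 3.10. The lowest RV array exceeded the highest other array by more than the whole spread of the LV and septum arrays. Aebp1 was 1.69 ± 0.16 higher than in the LV (adjusted p = 0.0024) and 1.63 ± 0.16 higher than in the septum (adjusted p = 0.00212). Both calls were kept without each single array (adjusted p at most 0.0150) and in all 16 other settings. Fn1, fibronectin, was 1.17 ± 0.21 higher than in the LV (adjusted p = 0.0188). Cthrc1, a mark of matrix-producing fibroblasts after injury, was also called (adjusted p = 0.0495), but it was well above background on only 1 LV and 2 septum arrays. It entered the test through the RV, where it was bright, and its difference to the LV is not exact. Against the septum 5 of the 11 activation genes had the higher mean in the RV, with a median of −0.04 (−0.18 over the 10 measured on all arrays).

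Together these lists held 40 genes, of which 37 were tested. Of these 7 were called higher in the RV than in the LV (6 without Cthrc1), where 2.31% of all probes and 3.14% of all genes were. Higher than in the septum were 3, where 1.2% of all probes and 1.68% of all genes were. They were Aebp1, Dact2 and Scara5, a ferritin receptor (0.50 ± 0.10, adjusted p = 0.0399). None was called lower. The RV–LV calls of Cthrc1 and Dact2 were lost whichever array was left out, and those of Dcn, Serpinf1, Sema3c and Fn1 in 9, 8, 5 and 4 of the 10 such fits. The Scara5 and Dact2 calls against the septum were lost in 9 and 8 of them. With slide as a block 20 were called against the LV (7.25% of all probes) and 7 against the septum (4.03%), while blocking on the replicate number gave 11 (6.24%) and 5 (3.35%).

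The families and pathways of the 10 genes were read in the same way, over 41 tested genes of 44. None of the PDGF ligands and the second receptor was called. Against the LV Pdgfc gave 0.57 and Pdgfa 0.19, while Pdgfb gave −0.21 and Pdgfd −0.18. Pdgfrb, the receptor of mural cells, gave 0.05. The E-proteins, with which Tcf21 forms dimers, were also not called, at 0.19 for Tcf12, 0.03 for Tcf3 and −0.14 for Tcf4.

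All 6 fibulin-family genes beside Fbln1 had a higher mean in the RV than in the LV, with a median difference of 0.58 over the 5 measured on all arrays. Efemp2, needed for elastic fibre assembly, was called at 0.58 ± 0.12 (adjusted p = 0.031). Fbln7 was not well above background on any LV array and was at least 2.24-fold higher in the RV (adjusted p = 0.0213). It entered the test through the RV, where it was bright, and had to differ. The bound sets the RV mean against the lowest signal well above background on each LV array, or the probe's own signal where that was higher. Mfap2, the relative of Mfap5 on microfibrils, was called at 1.23 ± 0.20 (adjusted p = 0.0119).

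The CCN family was divided. Ccn3 had RV levels of 0.59, 1.34, 3.56 and 2.73, LV levels of −0.88, −0.97 and −1.14, and septum levels of 1.01, −0.71 and 1.14. It was called against the LV (3.05 ± 0.68, adjusted p = 0.0421), and its RV arrays of slide 2 were the highest. Ccn1, named here after its values were seen, was −0.57 ± 0.16 in the RV relative to the LV (adjusted p = 0.0835) and −0.61 ± 0.16 relative to the septum (adjusted p = 0.0959). Neither was called. The mean difference of Ccn2 to the LV had the opposite sign (0.42 ± 0.30) and was not called either. YAP with TEAD factors can induce both genes, and their part here was not tested. The Hippo pathway genes Yap1 (−0.13), Wwtr1 (−0.08), Tead1 (−0.41) and Amotl2 (−0.05) were not called.

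Of the periostin relatives and integrin genes Tgfbi was called (0.85 ± 0.15, adjusted p = 0.0168), a TGF-beta-induced matrix protein built like periostin. Of the TGF-beta ligands and receptors Tgfbr2 was called (0.42 ± 0.09, adjusted p = 0.0388). In the gelsolin family the largest values were 0.68 for Avil and 0.35 for Capg and the lowest −0.24 for Svil and −0.10 for Flii, none of them called. Dpep2 gave 0.12. In all, 6 of the 41 genes were called higher than in the LV (5 without Fbln7), against 2.31% of all probes and 3.14% of all genes. None was called lower, and none was called against the septum. Leaving out single arrays removed the RV–LV call of Mfap2 in 2 of 10 fits, of Fbln7 in 3, of Tgfbi in 4, of Efemp2 in 5, of Ccn3 in 8 and of Tgfbr2 in 9.

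**Figure D4:**
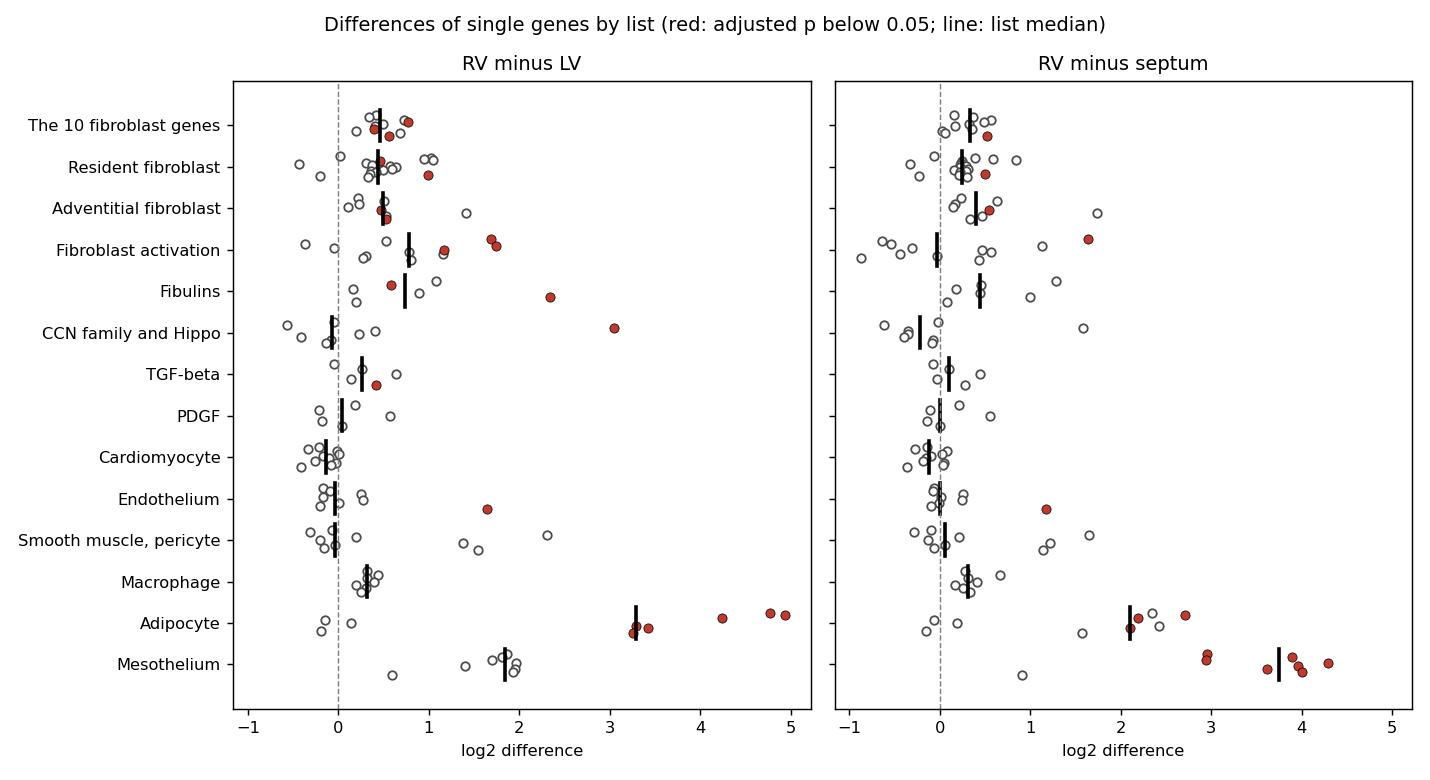
Difference between RV and LV (left) and RV and septum (right) for each tested gene of the lists named on the axis, on the log2 scale. Red points have an adjusted p below 0.05 and vertical lines are list medians. The medians of the fibroblast lists lie between 0.44 and 0.78 for RV minus LV, that of the cardiomyocyte list lies at −0.13, and several adipocyte and mesothelial genes lie beyond 2, of which those dim in the LV or septum have no exact difference.

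Markers of other cells that a piece of wall can hold were read over the same contrasts. Of 9 adipocyte markers 6 were called higher in the RV than in the LV, where 2.31% of all probes were. Higher than in the septum were 3, where 1.2% of all probes were called. Of the 6 markers measured on all arrays, 3 were called against the LV and 2 against the septum. The other 3 (Adipoq, Plin1 and Pck1) entered the test only through regions where they were bright, the RV and for Adipoq also the septum, and had to differ from the LV. With those genes at their own dim signals, the mean level of the list ran from 0.35 to 0.80 on RV arrays, from −2.63 to −1.62 on LV arrays and from −1.39 to −0.27 on septum arrays. Adipoq, the adipocyte hormone adiponectin, Plin1, which coats lipid droplets, and Pck1, an enzyme of glycerol synthesis, were not well above background on any LV array and were at least 14.5-fold, 4.34-fold and 3.36-fold higher in the RV. Plin4, Lipe and Lep, which were measured on all arrays, were not called.

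Of 9 mesothelial markers, genes of the epicardial cover, 8 were tested. None was called against the LV, and 7 were called higher in the RV than in the septum, where 1.2% of all probes were. Only 2 of the 8 were measured on all arrays, of which 1 (Msln) was called against the septum. The other 6 were not well above background on 1 or more septum arrays, so their differences to the septum are not exact. Lrrn4 was well above background on 4 RV, 2 LV and 1 septum arrays, and Bnc1 on 4, 0 and 0. Both entered the test only through the RV, where they were bright, so their calls against the septum are in part set by that filter. Bnc1, dim on every LV and septum array, was at least 1.88-fold higher in the RV than in the septum. With such dim signals included, the list's mean level ran from −0.85 to 0.62 in the RV, −2.05 to −1.26 in the LV and −4.24 to −2.22 in the septum. Msln, mesothelin, was 3.96 ± 0.69 higher in the RV than in the septum (adjusted p = 0.0247).

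The 7 macrophage markers had a higher mean in the RV than in both other regions (medians 0.31 and 0.31), with none called. Mean levels ran from 1.69 to 1.86 in the RV, 1.20 to 1.69 in the LV and 1.08 to 1.71 in the septum. Of 9 smooth muscle and pericyte markers none was called against either region. The mean was higher in the RV than in the LV for 4 and lower for 5, with a median difference of −0.04. The contractile smooth muscle genes Cnn1 and Tagln were at the upper end (2.30 and 1.55) and Acta2, smooth muscle actin, at the lower end (−0.31), followed by the pericyte potassium channel gene Kcnj8 (−0.20). The list's mean level ran from 3.18 to 4.19 in the RV, 3.02 to 3.26 in the LV and 2.91 to 3.56 in the septum. Of 8 endothelial markers only Vwf was called, against the LV (1.65 ± 0.20, adjusted p = 0.00377) and the septum (1.18 ± 0.20, adjusted p = 0.0212). Of all probes 2.31% and 1.2% were called higher in the RV. The medians of the endothelial list were −0.04 and 0.00.

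Among 5 tested genes of valve and annulus tissue Comp (2.91 ± 0.61, adjusted p = 0.0341) and Fmod (2.42 ± 0.36, adjusted p = 0.00892) were called against the LV. Of all probes 2.31% were called higher in the RV than in the LV. That list's mean level was −0.20 to 1.33 in the RV, −1.53 to −1.08 in the LV and −0.30 to 0.72 in the septum. Of 4 tested Schwann cell markers S100b was called against the LV (0.78, adjusted p = 0.032), and 1 was called higher than in the septum. Of all probes 2.31% and 1.2% were called higher in the RV. Differences of these markers to the LV ran from −0.33 to 0.78, with 3 of the 4 higher in the RV. Against the septum all 4 were higher in the RV, with a median difference of 0.64. None of 4 atrial and 2 blood markers was called, and the atrial means overlapped widely (1.96 to 4.58, 2.44 to 4.36 and 3.33 to 7.07). All 4 atrial markers had a higher mean in the septum than in the RV (median RV minus septum −1.90) and than in the LV (median septum minus LV 1.93). Against the LV 2 of the 4 were higher in the RV. The cardiomyocyte list had medians of −0.13 against the LV and −0.12 against the septum. The part of these other tissues in the differences of the fibroblast genes was not tested.

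**Figure D5:**
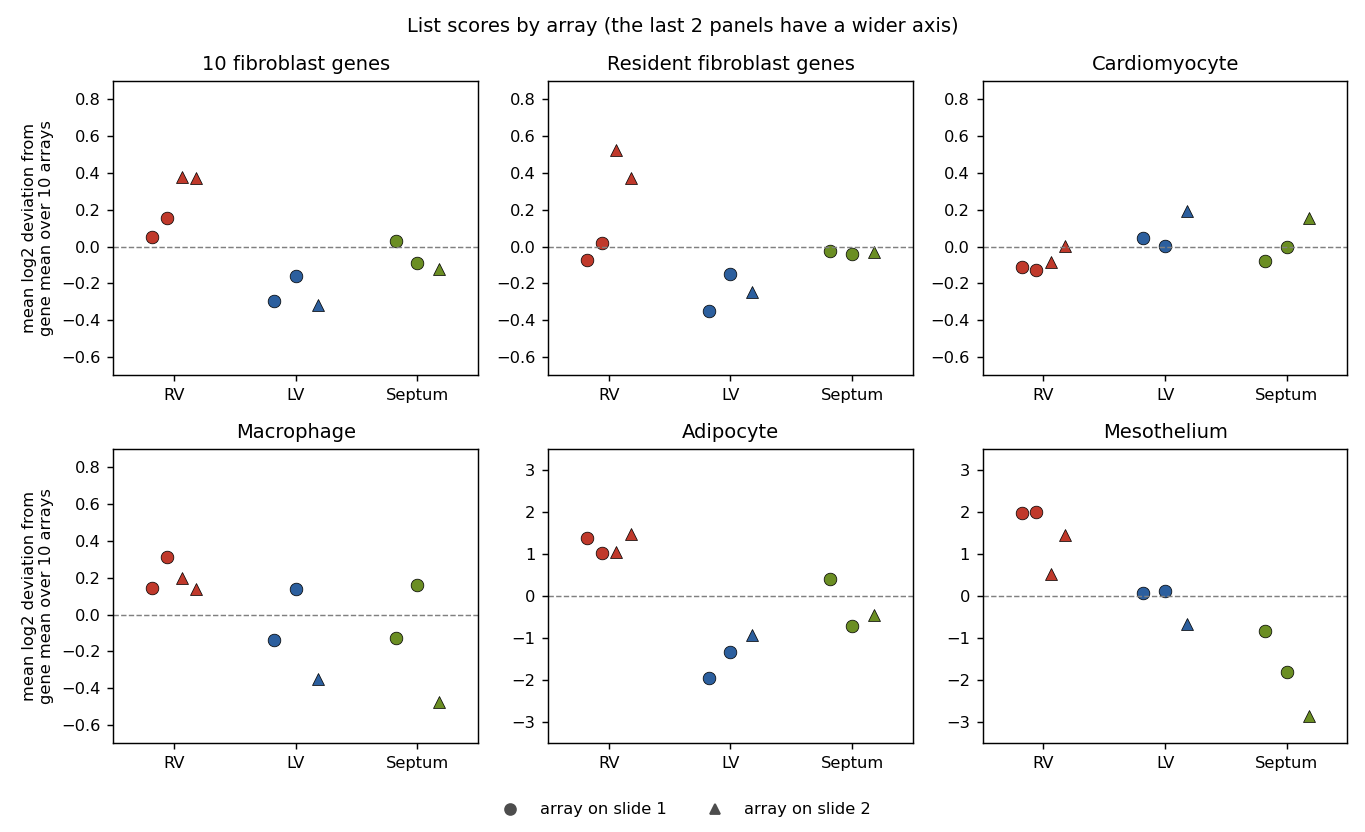
Score of 6 gene lists on each array, the mean log2 deviation of the list's genes from their mean over the 10 arrays. Circles are arrays of slide 1 and triangles of slide 2. The 10 fibroblast genes score 0.05 to 0.38 on RV arrays and −0.32 to 0.03 on the others, and the adipocyte score is above 1 on RV arrays only.

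The genes whose pattern was most like the mean of the 10 were found by Pearson's r over the 10 arrays. All other tested genes with a value on every array were searched. Most like the mean were Myof (r = 0.99), Rcn3 (0.98), Pdk3 (0.98), Tmem45a (0.97) and Tcaf1 (0.97). Most like Pdgfra were Mpp1 (0.98), C1s2 (0.97) and Arrb2 (0.97). Most like Tcf21 were Cldn3 (0.97), Naaa (0.96) and Tspan5 (0.95). Most like Fbln1 were Tgfbr2 (0.99), Nbl1 (0.97) and Calhm2 (0.97). The arrays share their region, slide and scaling, and the genes were picked for the highest r among all those searched, so these values are descriptions.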

How the data were processed

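The deposited intensity values were made by the authors with Agilent Feature Extraction (version 11.5.1.1, per the submitters' processing notes), which subtracts spot background and flags spots. The authors also deposited log2 values per probe, scaled to the 75th percentile of each array. Of these 100.0% lay within 0.05 of the values computed here. Control and outlier spots were removed (56 to 128 outlier spots per array), log2 processed signals of a probe were averaged, and each array's 75th percentile was subtracted. A probe was kept where all arrays of 1 or more regions read it well above background (30236 of 56605, 53.4%). RefSeq accessions named 32989 probes (58.3%) through the GRCm38.p6 gene table. The brightest probe stood for a gene.

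With limma a mean for each region was fitted over the 10 arrays (version 3.58.1, R 4.3.3; two-sided test), with Benjamini-Hochberg adjustment over all probes. The study's own test, analysis of variance and Tukey's correction, was run as an alternative, since limma moderates each probe's spread. It was read with Benjamini-Hochberg adjustment over probes and, added after seeing the data, at an unadjusted p below 0.05. Simulated arrays with known changes were used to test the limma fit. For normexp the median spot signal was used, since the files analysed hold no mean signal. Region and replicate number came from the sample titles. Deviations from region means correlated at 0.36 to 0.64 in all 9 pairs with the same number, and at 0.09 to 0.58 in 8 pairs on the same slide with other numbers. No label states a pairing by number, and these correlations do not settle it. On slide 1 the lowest pair with the same number (0.36) lay above the highest other pair (0.31). RV replicate 4, without a same-numbered partner, correlated with replicate 3 of the LV and septum at 0.57 and 0.58. RV replicate 3 correlated with the same arrays at only 0.43 and 0.44.

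The 10 genes, the further lists and the tests were chosen with earlier results of these data known. Named were the 10 genes, the called genes of each further list (or, without calls, up to 2 at each end of the RV–LV differences), and the 5 or 3 genes of most similar pattern. Any other gene was named after its values were seen. Array number limits the precision. Other settings were quantile normalization, median scaling, scaling to probes detected on all arrays, normexp, the authors' table, no filter, probes detected on all arrays, slide or replicate number as a block, single slides, a robust trended prior, only the regions compared, the mean of a gene's probes, and leaving out each array. Some marker results are not reported here.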

Additional observations from a re-analysis of the deposited data

How the results depend on the processing

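The count of the 10 genes called between RV and LV (3) became 1 with the analysis of variance adjusted over probes, 5 with it unadjusted (a reading chosen after seeing the data, by which 13.2% of all probes passed), 0 with median scaling, without a filter and within slide 1 or slide 2 alone, 5 with the replicate block, and 6 with slide as a block or a random block. Leaving out single arrays gave 0 to 3. The count against the septum (1) became 0 with median scaling, no filter, normexp, only the arrays of the regions compared, slide 1 alone or slide 2 alone, 2 with the replicate block, 3 with the unadjusted analysis of variance (9.13% of all probes) and 4 with slide as a block or a random block, and 0 to 1 without single arrays. The wider fibroblast count against the LV (7) became 1 with the analysis of variance, median scaling or no filter, 3 with only the regions compared, 4 on slide 1, 11 with the replicate block and 20 with slide as a block or a random block, and 1 to 4 without single arrays. Against the septum (3) it became 1 with the analysis of variance, median scaling, no filter, only the regions compared or slide 2 alone, 5 with the replicate block, 7 with the unadjusted analysis of variance and 7 with slide as a block or a random block, and 1 to 3 without single arrays.

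The median difference of the 10 genes to the LV (0.46) was 0.60 on slide 2, and that to the septum (0.34) was 0.22 on slide 1 and 0.51 on slide 2. Signs reversed for some differences, none of them called in the main fit. On slide 1 alone these were Pi16 to the LV (−0.027) and, to the septum, Mfap5 (−0.082), Pi16 (−0.17) and Postn (−0.45, against 0.58 on slide 2). On slide 2 alone they were Ccn2 to the septum (−0.047) and, for septum minus LV, Pdgfra (−0.033), Tcf21 (−0.064) and Dpt (−0.20). With the replicate block Postn to the septum was −0.015, and with median scaling septum minus LV was −0.017 for Pdgfra and −0.031 for Tcf21.

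Without single arrays the RV–LV difference of Pi16 ran from −0.041 (without LV replicate 3) to 0.40. Differences to the septum ran from −0.19 to 0.23 for Pi16, −0.19 to 0.23 for Postn and −0.083 to 0.46 for Ccn2. Septum minus LV ran from −0.035 to 0.075 for Tcf21, −0.079 to 0.45 for Dpt, −0.060 to 0.38 for Pi16, −0.10 to 0.033 for Dpep1 and −0.038 to 0.50 for Ccn2. Of 260 values of the 10 genes for each comparison, direction and side of the threshold were kept in 207 (RV and LV), 227 (RV and septum) and 248 (septum and LV). The cause was not tested. The 10 genes were measured on all arrays, whereas 13 genes of the other lists were not well above background on 1 or more arrays. No planned setting was left out.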
